A study of Mus musculus with 401 samples.

Results

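Oocytes of hyperovulated mice were compared with oocytes of mice that were not hyperovulated, at the same age of 2 months. The members were the single-oocyte libraries of the second set of samples whose mouse label read 2mo with a number (24 oocytes of 5 mice) or 2moNoH with a number (32 oocytes of 8 mice), 56 of the 401 libraries of the series. All 13 mice were B6D2F1 (C57BL/6 x DBA/2) females fed ad libitum (AL). Ovaries were placed in medium with IBMX, an inhibitor of phosphodiesterases that holds oocytes in meiotic arrest, and each oocyte was taken at the germinal vesicle (GV) stage from a fully grown follicle, together with a pool of its own cumulus cells. Hyperovulation was induced with equine chorionic gonadotropin (eCG) or with CARD HyperOva, which combines eCG with inhibin antiserum. Which mouse received which agent is not given in the sources used here, and neither is the cycle stage of the mice without hyperovulation. The labels name hyperovulation only where it was left out, and the treatment of the other mice was taken from the study's methods. Complex names began with B1 or B2 and what reads as a well position, and these prefixes are called plates here. Plate 1 held 16 oocytes of 3 hyperovulated mice and 16 of 4 mice without, and plate 2 held 8 of 2 and 16 of 4. The mouse 2mo34 gave 8 oocytes and each other mouse 4.

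Hyperovulation mimics the rise of follicle-stimulating hormone (FSH) that lets a cohort of follicles mature instead of being lost. The FSH receptor sits on granulosa cells, among them the cumulus cells that enclose the oocyte, and these cells respond with estrogen synthesis, inhibin and activin subunits and receptors for luteinizing hormone. The fully grown GV oocyte has stored its maternal RNA and transcribes little, and it exchanges metabolites and signals with cumulus cells through gap junctions at the ends of fine cell processes that cross the zona pellucida. The comparison addresses whether hyperovulation itself alters the oocyte's transcriptome.

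RamDA-seq copies total RNA along whole transcripts without molecular identifiers. Total counts per oocyte were 1719013 to 2433019 (median 2118731) with hyperovulation and 1645231 to 2201967 (median 1986202) without. Levels are given in CPM (counts scaled to a common library size of 1000000). Levels of single genes per oocyte or mouse used TMM-normalized totals. Marker sums, principal components, shares of variance, distances among oocytes and the mean CPM behind the 8 CPM level used plain totals. The labels matched the markers. In the oocyte libraries 13 oocyte markers summed to a median of 20802 CPM with and 20989 CPM without hyperovulation, against 8.40 CPM in the cumulus libraries. The 18 cumulus and granulosa markers summed to 204 to 373 CPM with and 228 to 383 CPM without, a median of 1.49% and 1.57% of their level in cumulus libraries, and none of the 18 was at 0. Most of this sum was Esr2 (means over mice 153 CPM with and 152 CPM without) and Nr5a2 (59.5 and 59.1 CPM). The median oocyte held 33.4% of the median cumulus level for Esr2, 22.1% for Cyp19a1 and 12.6% for Nr5a2. It held 0.320% for Inha and 0.109% for Gja1. The part of cumulus RNA in the sum was not tested. Col3a1, Col1a2 and Insl3 among 8 theca and stroma markers were at 0 in every oocyte, as were the 4 globin genes, Ptprc and Adgre1 among 10 blood and vessel markers. The blood and vessel markers summed to a median of 79.8 CPM with and 78.7 CPM without hyperovulation, against 11.01 CPM in cumulus libraries, and most of this was Pecam1 at 75.3 ± 13.2 CPM (mean ± SD of 5 mice) and 72.2 ± 5.54 CPM (8 mice).

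No gene passed the test between hyperovulated oocytes and those without. Counts were summed per mouse, because oocytes of a mouse are not independent animals, and 5 mice were compared with 8 by edgeR's quasi-likelihood test with plate as a term. Of 25338 genes tested, 0 (0%) had a Benjamini-Hochberg adjusted p under 5%. At an unadjusted p under 0.05 there were 1250 genes (4.93%). DESeq2 on the same sums gave 0 genes with 689 at an unadjusted p under 0.05, and limma voom on the libraries with a correlation within mice gave 0 with 2556. The study's own tests took libraries as units. With libraries as units edgeR called 7 genes here (0.0276%), 3 higher and 4 lower. The plate term of the mouse fit called 818 genes (3.23%) in these oocytes.

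The differences were also small in size. Among the 9437 genes with a mean of at least 8 CPM, the median log2 fold change (hyperovulated over without) was -0.00 and the middle 50% of genes lay between -0.05 and 0.05, with a median standard error of 0.07. The 95% confidence interval lay within a 1.25-fold difference in either direction for 8283 of these genes (87.8%), within 1.5-fold for 9391 (99.5%) and within 2-fold for 9426 (99.9%). The estimate itself exceeded 1.25-fold in 30 genes, 1.5-fold in 6 and 2-fold in 1. That gene was Grem1, a secreted antagonist of bone morphogenetic proteins made by cumulus cells. The 11 genes whose interval reached beyond 2-fold were Inha, Grem1, Ccnd2, Gja1, Ldha, Ust, Slc39a8, Myocd, Synpo, Nhs and C130074G19Rik.

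**Figure D1:**
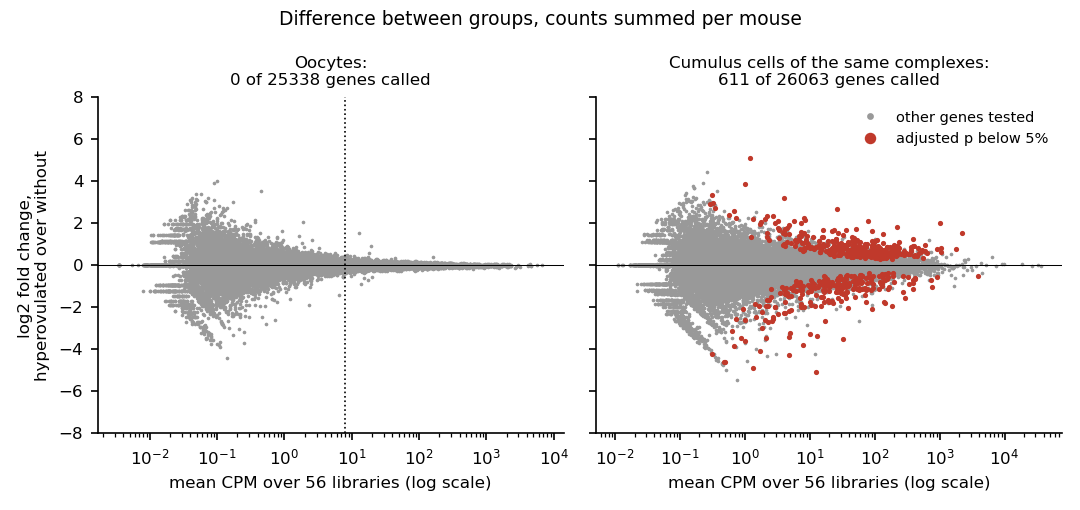
Log2 fold change (vertical axis, hyperovulated over without) against mean CPM over 56 libraries (horizontal log axis) for each gene tested in oocytes (left) and in the cumulus cells of the same complexes (right), both from counts summed over 5 and 8 mice. Genes with an adjusted p under 5% are red: 0 of 25338 in oocytes and 611 of 26063 in cumulus cells. The dotted line marks 8 CPM, above which the points of the oocytes lie close to 0.

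No whole-transcriptome measure passed a test between the groups. Group membership held 9.16% of the plate-adjusted variance between the 13 mice in log2(CPM + 1), a share that mice reassigned within plates reached or passed with an exact permutation p of 0.347 (525 permutations, smallest possible p 0.0019), and plates held 14.9% of the group-adjusted variance. The mean distance of an oocyte from the average of its mouse was 59.1 ± 1.44 (SD, 5 mice) with and 59.7 ± 1.07 (8 mice) without hyperovulation. Distance was the square root of the summed squared differences in log2(CPM + 1) over all genes tested, corrected for the number of oocytes per mouse. The plate-adjusted difference was -0.546 (two-sided exact permutation p = 0.463). The ranges over mice overlapped at 57.5 to 60.6 and 58.2 to 61.3. The first 4 principal components held 4.54%, 4.13%, 3.04% and 2.61% of the variance among oocytes. None of 10 measures per mouse (total counts, genes detected, mitochondrially encoded share, share outside protein-coding genes, summed cumulus markers, summed oocyte markers and the 4 components) passed after adjustment over the 10. Total counts per oocyte came nearest, at 2137500 ± 138670 (5 mice) against 1977540 ± 98194 (8 mice), with an exact permutation p of 0.0362 and an adjusted p of 0.362.

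Genes that make the oocyte an oocyte were at like levels in both groups. Gdf9, an oocyte-secreted growth factor that drives follicle growth and cumulus function, was at 2961 CPM in the lowest hyperovulated oocyte, 4635 CPM in the median and 6007 CPM in the highest, and at 3542, 4765 and 5957 CPM without. The log2 fold change was -0.05 with a 95% interval of -0.15 to 0.05. Bmp15, its partner on the X chromosome, was at 3320, 4378 and 5650 CPM with and 3664, 4330 and 5062 CPM without, a log2 fold change of 0.04 (interval -0.03 to 0.12). Bmp6, Fgf8 and Kit, the receptor on the oocyte for Kit ligand of granulosa cells, had log2 fold changes of -0.01, -0.11 and -0.06. All 5 genes of this group had intervals within 1.25-fold, and 0 of 5 had an unadjusted p under 0.05. Among the 13 oocyte markers, which share members with these lists, 0 passed the test and 5 were lower at an unadjusted p under 0.05. Over all genes tested 4.93% had such a p in either direction. The markers' median log2 fold change was -0.06, with every interval within 1.25-fold.

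The zona pellucida genes had intervals within 1.25-fold and did not pass the test. They encode the glycoproteins of the coat that sperm bind. Zp3 was at 2005, 2685 and 3209 CPM (lowest, median and highest oocyte) with and at 2138, 2912 and 3596 CPM without hyperovulation, and the ranges overlapped. Its log2 fold change was -0.10 ± 0.05 (SE), that of Zp2 -0.08 ± 0.04 and that of Zp1 -0.09 ± 0.04, with unadjusted p of 0.044, 0.0491 and 0.02 and adjusted p of 0.977 for each from edgeR. Of the 9 zona and egg surface genes, 0 passed the test and these 3 had an unadjusted p under 0.05, beside 4.93% of all genes tested. The list's median log2 fold change was -0.05 (-0.09 in plate 1 and 0.01 in plate 2), beside -0.00 over all genes tested. The sperm receptor Izumo1r on the egg membrane and the cortical granule protease gene Astl had values of -0.09 and -0.03. By mouse, the hyperovulated mice had 2521 to 2849 CPM of Zp3, the 4 mice without hyperovulation on plate 1 had 2937 to 3214 CPM, and the 4 on plate 2 had 2432 to 2847 CPM. The estimate for Zp3 was -0.18 in plate 1 and 0.01 in plate 2.

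**Figure D2:**
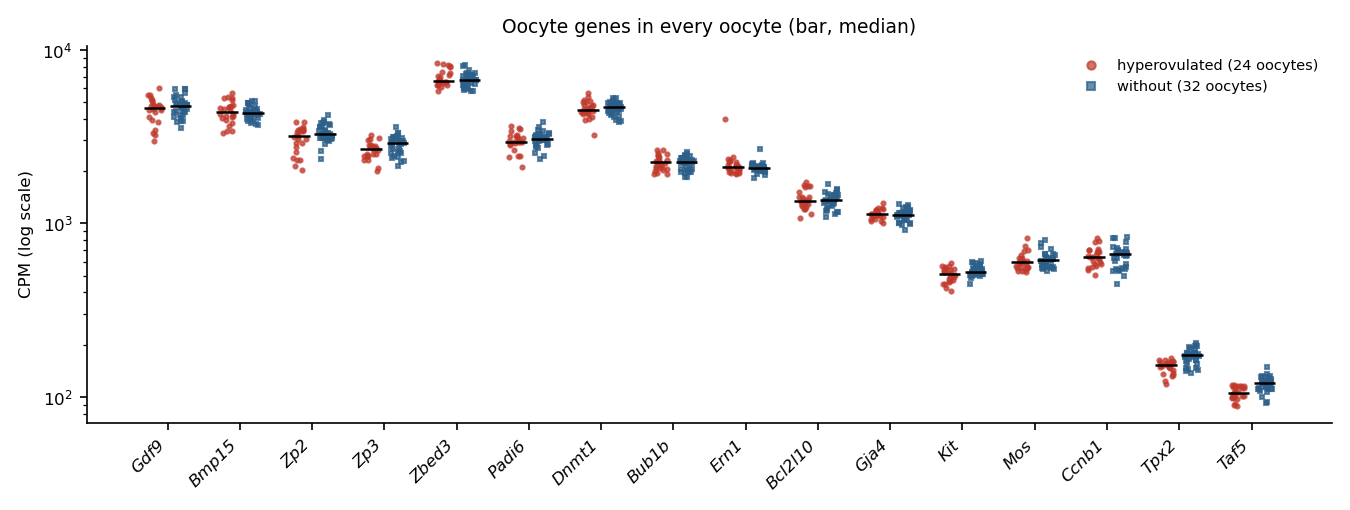
CPM (vertical log axis) of 16 oocyte genes in each oocyte of hyperovulated mice (red circles, 24 oocytes) and of mice without hyperovulation (blue squares, 32 oocytes), with the median as a bar. The ranges overlap for every gene shown, from Zbed3 at a mean of 6782 CPM to Taf5 at 113 CPM, and the medians of Tpx2 are 152 and 173 CPM.

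Genes of the meiotic arrest and its release did not pass the test either. Arrest at the GV stage is held by cyclic AMP made behind the receptor Gpr3 and by cyclic GMP that enters through gap junctions of Gja4 (connexin 37), and it ends when Pde3a breaks down cyclic AMP and cyclin B with Cdk1 becomes active. Of 31 genes on this list 0 passed, 1 was higher and 2 were lower at an unadjusted p under 0.05, and the median log2 fold change was -0.01. Gja4 was at 1122 ± 35.6 CPM (5 mice) and 1121 ± 58.2 CPM (8 mice), and Ccnb1 at 656 ± 48.3 and 649 ± 86.3 CPM. All nonzero values of Ccnb1 carried a fraction, as multi-mapped reads give, and its level is uncertain to that extent. Log2 fold changes were -0.02 for Gpr3, -0.01 for Pde3a and 0.04 for Cdk1. The 3 members under 0.05 were Cdc25a, a phosphatase that activates cyclin-dependent kinases (0.11 ± 0.05 SE), Mos, the kinase that maintains the later arrest at metaphase II (-0.08 ± 0.03), and Fbxo5, an inhibitor of the anaphase-promoting complex (-0.13 ± 0.04). These 3 were chosen after their values were seen, and all 29 members at 8 CPM or more had intervals within 1.25-fold.

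No gene on the lists of stores that an oocyte passes to the embryo passed the test. The subcortical maternal complex is a protein assembly under the egg membrane that the first cleavages need, and its member Zbed3 was the gene with the highest mean CPM among all lists, at 6762 ± 541 CPM (5 mice) and 6683 ± 496 CPM (8 mice). Padi6, which the cytoplasmic lattices of the egg require, was at 2988 ± 116 and 3059 ± 150 CPM. Of the 8 members 0 passed and Ooep alone had an unadjusted p under 0.05 (log2 fold change -0.10). Only 3 of the 8 were counted often enough to be tested in the cumulus libraries. Of these 3, Tle6 was called there, as higher, beside 2.34% of all genes tested in cumulus libraries. Among 20 genes of maternal mRNA storage, translation and decay, Zar1 had a log2 fold change of -0.02 and Cpeb1, which directs translation of stored mRNA, of -0.01. Of these 20 genes 0 passed and 1 had an unadjusted p under 0.05, Tut4, a uridylyltransferase that marks RNA for decay, at a mean of 1.15 CPM with a log2 fold change of -1.10 (interval -2.09 to -0.12), which was -2.44 in plate 1 and 0.53 in plate 2. Among 17 genes of DNA methylation and chromatin, the maintenance methyltransferase Dnmt1 was at 4572 ± 152 and 4611 ± 224 CPM, the demethylating enzyme Tet3 at 2100 ± 197 and 2028 ± 130 CPM, and Dppa3, which protects the zygote's methylation, had a log2 fold change of -0.10. Of 12 oocyte transcription factors none passed or had an unadjusted p under 0.05, with log2 fold changes of -0.03 for Foxo3, which keeps primordial follicles dormant, and 0.00 for Sall4.

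Chromosome segregation genes were within a narrow band. None of 19 cohesin genes, 27 genes of the spindle checkpoint and kinetochore or 15 of actin and spindle positioning passed, and the medians of the lists were 0.01, -0.02 and -0.01. In the same order, 2, 7 and 3 members had an unadjusted p under 0.05, in both directions on each list, beside 4.93% of all genes tested. Bub1b, a checkpoint kinase, was at 2225 ± 156 and 2210 ± 108 CPM. Cenpf, a kinetochore protein, had a log2 fold change of -0.08 ± 0.04, Wapl, which releases cohesin from chromosomes, of 0.02, and Cdca5, which protects it, of 0.01. The list of spindle positioning held Myo5b at -0.01 and Tacc3, a scaffold of the acentrosomal spindle, at -0.04. It also held Tpx2, an activator of Aurora A kinase on spindle microtubules (chromosome 2 of GRCm38, 152847964 to 152895321), whose unadjusted p of 0.000292 was the smallest among genes at 8 CPM or more with at most 50% of values carrying a fraction.

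Tpx2 was at 157, 147, 149, 151 and 142 CPM in the hyperovulated mice 2mo1, 2mo2, 2mo34, 2mo35 and 2mo36. The 8 mice without hyperovulation had 158 to 182 CPM, so the groups did not overlap over mice, with 157.5 CPM in the lowest of them and 156.6 CPM in the highest hyperovulated mouse. Tpx2 was named for its small p from these same values, so the lack of overlap is no separate evidence. The share of all genes without overlap is not given here. The log2 fold change was -0.20 ± 0.04 (SE) with an interval of -0.29 to -0.10, and the adjusted p was 0.69 over mice and 0.0434 with libraries as units, both from edgeR. Within plates it was -0.15 and -0.25, and against hyperovulated mice at 4 months in place of 2 months it was -0.11 (adjusted p = 0.418).

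The 7 further genes with the smallest p at this level did not pass the test over mice or libraries. Plcl1, a phospholipase C-related protein without catalytic activity, was at 27.9 ± 1.84 CPM (5 mice) and 33.7 ± 1.82 CPM (8 mice), a log2 fold change of -0.27 ± 0.06 (SE), and the mice of the groups did not overlap (25.7 to 30.7 and 32.3 to 36.7 CPM). Taf5, a subunit of the general transcription factor TFIID, was at 106 ± 2.58 and 119 ± 5.15 CPM, with the highest hyperovulated mouse at 108.9 and the lowest mouse without at 108.7 CPM. Phf2, a histone demethylase, was at 32.9 ± 1.16 and 27.7 ± 1.90 CPM, without overlap (31.4 to 34.1 and 25.4 to 30.1 CPM). Traf5, Atad2 and Rnf43 had log2 fold changes of 0.36, 0.22 and 0.37. The mice of the groups overlapped for Atad2 and Rnf43, and for Traf5 they did not (12.54 to 15.97 and 9.75 to 12.47 CPM). Ust, a sulfotransferase of chondroitin and dermatan sulfate, had the largest estimate, 0.91 ± 0.21, and was at 42.8 CPM in 2mo1 against 18.6 to 25.2 CPM in the other hyperovulated mice, and at 25.5 CPM in 2moNoH11 against 7.61 to 15.6 CPM in the other mice without. Adjusted p ranged from 0.69 to 0.948 over mice for the 8 genes with Tpx2. All 8 were picked by p from these same values, so a lack of overlap between their mice is no separate evidence.

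No mitochondrial or ribosomal gene passed the test. Over the 13 mitochondrially encoded proteins the median log2 fold change was -0.15, with 1 above 0 and 12 below, and 2 (mt-Co3 at -0.15 and mt-Nd5 at -0.28) had an unadjusted p under 0.05. mt-Co1, the catalytic subunit of cytochrome oxidase, was at 468 ± 105 CPM (5 mice) and 508 ± 34.8 CPM (8 mice), and the spread between the hyperovulated mice was the larger. The list's median was -0.36 in plate 1 and 0.14 in plate 2, so its sign held on plate 1 alone. Of 86 cytoplasmic ribosomal protein genes, 77 were below 0, with a median of -0.07 (-0.09 in plate 1 and -0.05 in plate 2). An unadjusted p under 0.05 was found in 16 of the 86, all of them lower, beside 4.93% of all genes tested in either direction. Rpl41, a member of this list, had a log2 fold change of -0.07. The medians of 78 mitochondrial ribosomal proteins (Mrps25 at -0.06, Mrpl24 at -0.14), 83 nuclear-encoded respiratory chain subunits (Atp5a1 at -0.06, Atp5b at -0.07) and 40 proteasome subunits (Psmd8 at -0.03, Psmd9 at 0.04) were -0.04, -0.04 and -0.02.

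Stress, survival and epigenetic lists held no called gene. The heat shock and unfolded protein list had a median of -0.06, with the ER stress sensor Ern1 at 2150 ± 121 and 2095 ± 48.2 CPM and the chaperone Hsp90aa1 at a log2 fold change of -0.04. Its inducible members Hspa1a (-0.61 ± 0.19 SE) and Hspa1b (-0.55 ± 0.19), which share reads, and the constitutive Hspa8 (-0.16 ± 0.04) had unadjusted p of 0.00459, 0.00784 and 0.00134. Asns, the asparagine synthetase induced by amino acid shortage, was the 1 member above 0 at an unadjusted p under 0.05 (log2 fold change 0.43, p = 0.0252, from edgeR). These 4 were chosen after their values were seen. Nearly all values of Hspa8 (98.2%) carried a fraction. Antioxidant genes had a median of -0.03, with Prdx2 at -0.02 and Prdx1 at -0.03. The survival gene Bcl2l10, a BCL2 relative abundant in oocytes, was at 1363 ± 83.1 and 1355 ± 72.9 CPM, and Mdm2, the ubiquitin ligase of p53, had a log2 fold change of -0.01. Of 19 imprinted genes, expressed from the copy of a single parent, 0 passed and Igf2r alone had an unadjusted p under 0.05 (-0.10), with Mest at 0.09. For 10 of them at 8 CPM or more, 7 intervals lay within 1.25-fold and all 10 within 1.5-fold. Core histones (H3f3b and H3f3a at -0.00 and 0.01) and abundant noncoding RNAs (Rn7s1 and Rn7s2, near-identical copies that share reads, at -0.03 each) had medians of -0.05 and -0.07. Genes of cholesterol synthesis and uptake had 0 calls of 20 in oocytes (Fdft1 at -0.02, Insig1 at -0.04) and 8 of 20, all higher, in the cumulus libraries, where 2.34% of all genes tested were called.

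**Figure D3:**
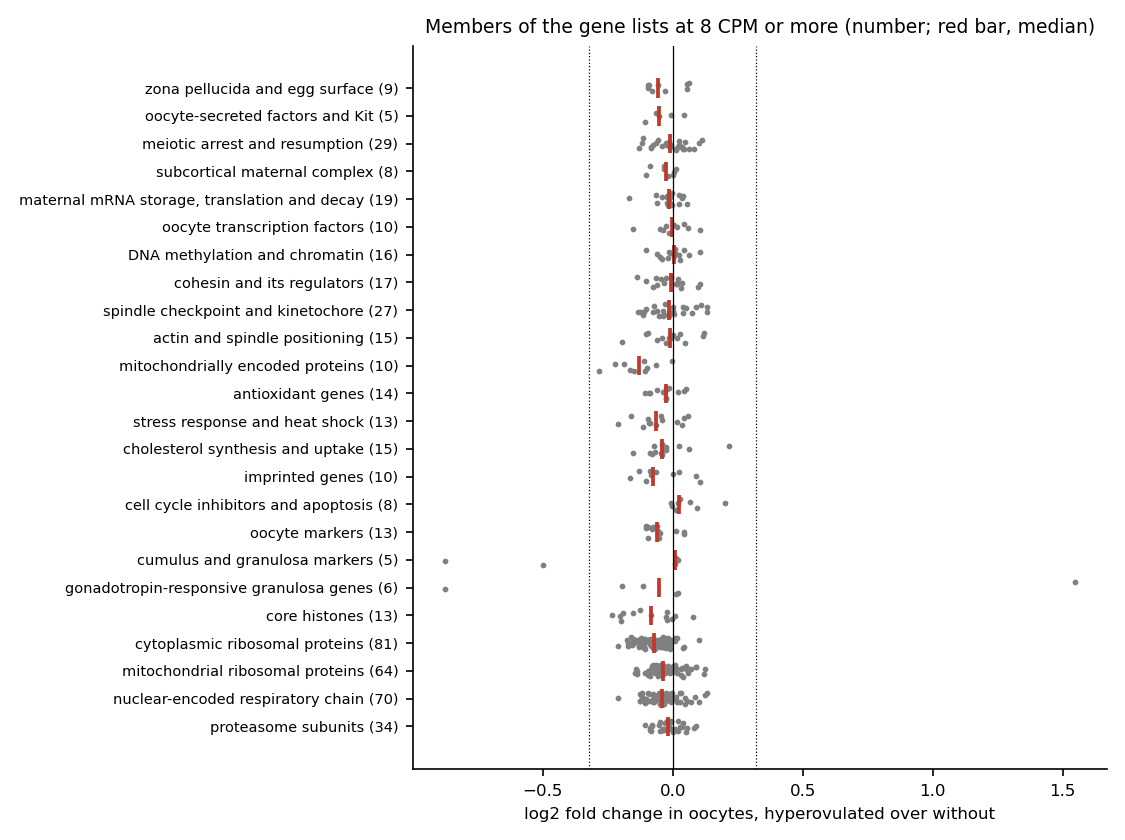
Log2 fold change in oocytes (horizontal axis, hyperovulated over without) for members at 8 CPM or more of the 24 gene lists with at least 5 such members, each point a gene and the red bar the list's median. Dotted lines mark 1.25-fold, and the points outside them are Inha, Gja1 and Grem1, with Inha on both lists of follicle cell genes.

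The genes that differed with libraries as units were counted rarely, apart from Tpx2, and were chosen after their values were seen. Rhox8, a homeobox gene of the X chromosome (37874778 to 37878944) known from somatic cells of the gonads, had at least 1 count in 15 of 24 hyperovulated oocytes and in 5 of 32 without. The mice 2mo1, 2mo2, 2mo34, 2mo35 and 2mo36 had 0.26, 0.97, 0.81, 1.23 and 1.75 CPM, and the mice without hyperovulation 0 to 0.25 CPM. The lowest hyperovulated mouse, at 0.258 CPM, and the highest mouse without, at 0.249 CPM, held the same summed count. They differed in CPM only through the scaling by library totals, so the groups met at this count. Rhox8 was also picked from these same values, so the separation of the other mice is no separate evidence. The share of all genes with such a separation is not given here. In all, 50 and 5 counts were summed, a 12.3-fold higher rate with hyperovulation (exact 95% interval 4.93 to 39.5, counting error only). The adjusted p was 0.0682 over mice and 0.00027 over libraries, and over mice it passed in 2 of 13 fits that left out a mouse. In cumulus libraries Rhox8 was at 1.88 ± 1.27 CPM (5 mice) and 0.608 ± 0.527 CPM (8 mice), a log2 fold change of 1.59 with an adjusted p of 0.201.

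Inhba encodes the beta A subunit shared by activin A and inhibin A, which granulosa cells make (chromosome 13, 16011851 to 16031621). Its level was 0.77, 0.60, 3.62, 4.81 and 6.90 CPM in the 5 hyperovulated mice, and 0.83 to 1.99 CPM in the mice without hyperovulation on plate 1 and 0.12 to 0.61 CPM in those on plate 2. The hyperovulated mice 2mo34, 2mo35 and 2mo36 stood above all mice without, and 2mo1 and 2mo2 overlapped with them. The log2 fold change was 2.04 ± 0.49 (SE), with an adjusted p of 0.709 over mice and 0.0423 over libraries. In the cumulus libraries of the same complexes Inhba was at 1777 ± 475 CPM (5 mice) and 417 ± 342 CPM (8 mice), a log2 fold change of 2.04 with an adjusted p of 0.0241, and the median oocyte held 0.157% of the median cumulus level. Whether the oocyte libraries' Inhba counts came from the oocyte was not tested.

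Kazald1, a secreted protein with an insulin-like growth factor binding domain, had 6 counts in all with and 53 without hyperovulation, a 7.19-fold lower rate with it (interval 3.09 to 20.5), and in cumulus libraries its log2 fold change was -1.42 (adjusted p = 0.0274). Gstt3 and Apoa1 each had 2 counts with and 27 without. For Apoa1 the estimate was -5.79 in plate 1 and 0.66 in plate 2, where 2mo36 had 0.22 CPM, 2moNoH10 had 0.28 CPM and the other mice had 0. There were 19 counts of Tgm3 with and 2 without, in 11 of 24 and 2 of 32 oocytes. Tgm3 reached 0.101 ± 0.14 CPM in cumulus libraries of hyperovulated mice and was at 0 in those of mice without. Without a filter on low counts, edgeR over mice called 6 of 30008 genes, namely Inhba, Rhox8, Ust, Kazald1, Tns1 and Nr4a1, an orphan nuclear receptor of the immediate early response. Nr4a1 was at 0 to 0.56 CPM in the hyperovulated mice, at 0.14 to 1.62 CPM in 7 of the mice without and at 4.02 CPM in 2moNoH7, where 1 oocyte without hyperovulation reached 14.9 CPM. Tns1 was also highest in 2moNoH7, at 10.5 CPM against 0.998 to 4.20 CPM in the other mice without. Of the 7 genes called over libraries, the 6 besides Tpx2 had group means of at most 3.34 CPM.

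Follicle cell markers in the oocyte libraries differed between the groups in opposite directions on the plates. The 18 cumulus markers summed to 238 to 256 CPM in the 3 hyperovulated mice of plate 1 and 289 to 330 CPM in the 4 mice without, but to 275 to 313 CPM and 243 to 261 CPM on plate 2, without overlap on either plate. Pooled, the groups had 267 ± 29.1 CPM (5 mice) and 279 ± 31.9 CPM (8 mice), with an exact permutation p of 0.423. The mitochondrially encoded share did likewise, at 0.440% to 0.473% against 0.536% to 0.605% on plate 1 and 0.681% to 0.683% against 0.579% to 0.627% on plate 2. The score on the second principal component was -6.42 to 5.22 against 6.02 to 17.9 on plate 1 and -0.831 to 0.354 against -19.9 to -7.87 on plate 2. The difference between plates was tested by permuting mice within plates, an alternative added after seeing the data. The exact permutation p was 0.0019 for the marker sum and the mitochondrial share, the smallest that 525 permutations can give, and 0.00381 for the second component, with adjusted p over 10 measures of 0.00952, 0.00952 and 0.0127.

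**Figure D4:**
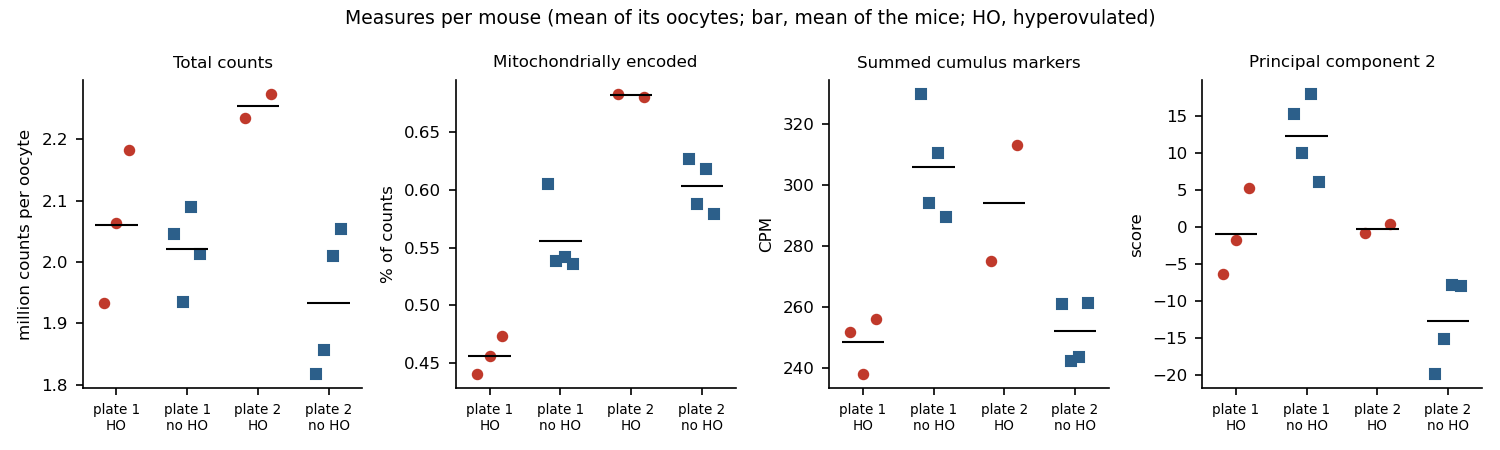
Total counts, share of mitochondrially encoded counts, summed CPM of 18 cumulus markers and score on the second principal component (vertical axes) for each mouse, as the mean of its oocytes, by plate and group (red circles, hyperovulated, HO; blue squares, without; bar, mean of the mice). In the last 3 panels the hyperovulated mice lie below the others on plate 1 and above them on plate 2.

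Gene by gene, a term for the difference of the group effect between plates called 46 of 25338 genes (0.182%, edgeR over mice), and all 46 were lower with hyperovulation on plate 1 and higher on plate 2. Of these, 34 (73.9%) had a mean at least 10-fold higher in cumulus than in oocyte libraries, as did 3299 of all 25338 genes tested. The part of cumulus RNA in these differences was not tested. Hsd17b1, the granulosa enzyme that makes active estradiol, was at 2.45, 2.05 and 3.68 CPM in the hyperovulated mice of plate 1 and 6.48 to 14.6 CPM without, and at 4.70 and 6.02 CPM against 0.81 to 1.38 CPM on plate 2. Inha, the alpha subunit of inhibin, was at 3.75 to 8.51 CPM against 18.8 to 41.2 CPM on plate 1 and 10.7 and 15.3 CPM against 4.20 to 9.13 CPM on plate 2. Neither overlapped on either plate. The log2 fold changes on the plates were -2.89 and 1.70 for the transcription factor gene Jun, -1.51 and 1.86 for Fos, -1.58 and 2.26 for Fst, the follistatin that binds activin, -3.44 and 1.48 for Amh, the anti-Müllerian hormone of small follicles, and -0.31 and 0.18 for the mitochondrial ribosomal RNA mt-Rnr1. These genes were chosen after their values were seen. In the same fit, the mice without hyperovulation differed between plates at 804 of 25338 genes (4 mice against 4) and the hyperovulated mice at 9 (3 against 2). With fewer mice fewer genes can be called, so these counts do not show which group differed more between plates.

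**Figure D5:**
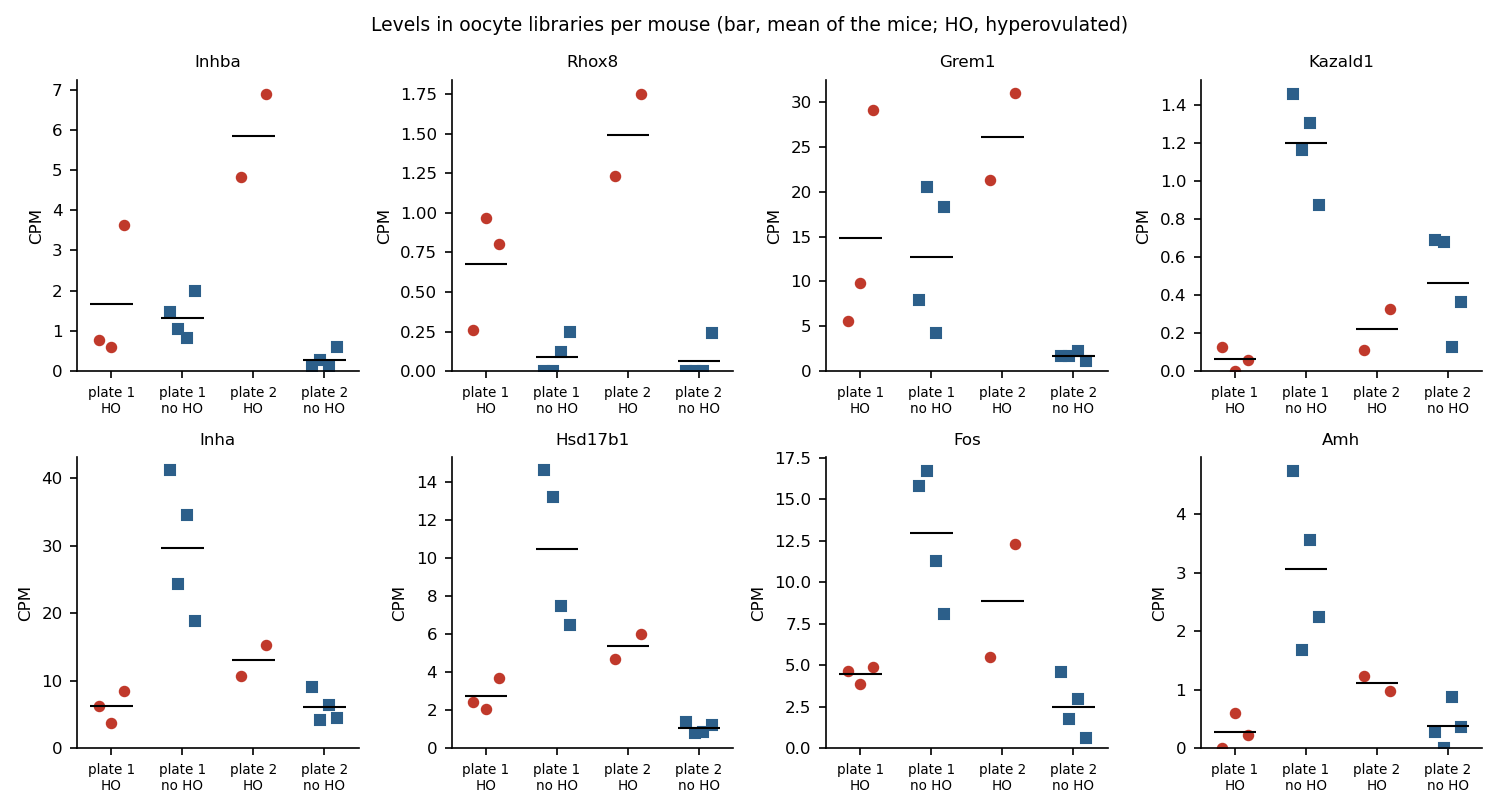
CPM in the oocyte libraries (vertical axes, from 0) of 8 genes made by follicle cells or of the immediate early response, for each mouse by plate and group (red circles, hyperovulated, HO; blue squares, without; bar, mean of the mice). The highest mouse is a hyperovulated mouse of plate 2 for Inhba, Rhox8 and Grem1, and a mouse without hyperovulation on plate 1 for Inha, Hsd17b1, Fos and Amh.

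Some of the genes known to respond to gonadotropin in granulosa cells passed the test in cumulus libraries, and none did in oocyte libraries of the same complexes. Of 17 such genes, 0 were called in oocytes, where Inhba and Grem1 were higher and Inha lower at an unadjusted p under 0.05, and 5 were called higher in cumulus cells, where 611 of 26063 genes (2.34%) were called. Whether the effect differed between the cell types was not tested, and in a pool of cumulus cells a change in the mix of cells and a change in RNA per cell cannot be told apart. Cyp19a1, the aromatase that makes estrogen, was at 9.31 to 16.1 CPM over 5 mice and 9.97 to 14.8 CPM over 8 mice in oocytes, a log2 fold change of 0.02 with an interval within 1.5-fold, and at 156 ± 78.8 and 46.9 ± 25.9 CPM in cumulus cells, a log2 fold change of 1.65 (adjusted p = 0.00956). Grem1 was at 19.3 ± 11.4 and 7.22 ± 7.89 CPM in oocyte libraries, a log2 fold change of 1.55 ± 0.48 (SE, adjusted p = 0.977), and at 386 ± 44.5 and 106 ± 71.8 CPM in cumulus libraries (log2 fold change 1.81, adjusted p = 0.0223). Inhbb and the FSH receptor gene Fshr had oocyte log2 fold changes of 0.56 and 0.28 against 1.56 and 0.95 in cumulus cells (adjusted p = 0.00614 and 0.0395). Esr2 and Ccnd2, the listed members with the highest mean CPM in oocytes, had -0.31 and -0.04 in cumulus cells, neither called, and 0.01 and -0.19 in oocytes. Of the 559 genes called in cumulus cells that could be tested in oocytes, 0 were called there. An unadjusted p under 0.05 was found in 45 of the 559, beside 1250 of all 25338 genes tested in oocytes (4.93%). At 8 CPM or more (271 genes) the median size of the log2 difference was 0.69 in cumulus cells and 0.05 in oocytes. Over all 9437 genes at this level it was also 0.05 in oocytes. The 271 genes were selected by their call in cumulus cells, which raises their size there. These medians therefore do not compare the response of the cell types.

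No gene of the other follicle cell lists passed the test in oocytes. Egfr, the receptor through which EGF-like ligands act, was at 208 ± 18.4 and 205 ± 24.8 CPM, and Ptgs2, the prostaglandin synthase of cumulus expansion, at 4.47 ± 1.82 and 2.61 ± 1.34 CPM (log2 fold change 0.83, unadjusted p = 0.00733, adjusted p = 0.977 from edgeR). Among 18 immediate early genes tested in oocytes, 0 passed and 4 were lower at an unadjusted p under 0.05. Over all genes tested 4.93% had such a p in either direction. Of the 18 genes 17 were below 0, with a median log2 fold change of -0.24 (-0.44 in plate 1 and -0.04 in plate 2). Only 2 of them, Egr1 and Dusp1, were at 8 CPM or more. In cumulus cells 7 of 19 were called, all lower, beside 2.34% of all genes. Egr1 was at 53.0 ± 4.92 and 59.0 ± 5.20 CPM and Dusp1 at 145 ± 9.98 and 150 ± 10.2 CPM in oocytes. The stroma gene Pdgfra was at 0.676 ± 0.381 and 0.572 ± 0.389 CPM and Dcn at 0.439 ± 0.356 and 0.142 ± 0.167 CPM, and the endothelial receptor gene Kdr at 4.91 ± 1.75 and 4.79 ± 0.75 CPM.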

How the data were processed

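RamDA-seq reads of single oocytes and of their cumulus cells were trimmed by the authors with Fastq-mcf, mapped to GRCm38 with HISAT2 2.0.5 and counted on GENCODE vM15 genes with featureCounts 1.5.1. The authors deposited an expected count per gene and library, with multi-mapped reads shared between genes, so 36.9% of nonzero oocyte values were not whole (tolerance 0.001). Besides Ccnb1 and Hspa8, this share was 100% for Rpl41, 98.2% for Hsp90aa1, H3f3a, Rn7s1 and Rn7s2, and 92.9% for mt-Co1. It was 91.1% for Prdx1, 89.3% for Dppa3, 87.5% for Prdx2 and 80.4% for Zar1. The levels of these genes are uncertain to that extent. The authors also deposited RPKM values, used here for the mean level of each gene and an alternative. The design had taken the values for plain counts. They were rounded before edgeR and DESeq2. The plate was taken from complex names.

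Genes counted in 5 or more of the 56 libraries were kept. Counts were summed per mouse (5 and 8 mice), scaled by TMM and tested by the quasi-likelihood F test of edgeR 4.0.16 (under R 4.3.3) with plate as a term, at a false discovery rate of 5%. Alternatives used libraries as units, limma 3.58.1, DESeq2 1.42.0, other filters and scalings, each plate alone and each mouse left out. Exact two-sided permutation tests reassigned mice within plates. Tests were checked on simulated data. P-values over mice measure the spread between mice. Those of edgeR with libraries as units measure the spread among oocytes and treat oocytes of a mouse as independent. Standard errors were calculated from the F statistics.

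Of 42349 genes 42230 were found in GENCODE vM21, which gave symbols and GRCm38 coordinates. No libraries were duplicates: over 1540 pairs of oocyte libraries the mean chi-square per gene was at least 2.04. The genes named were to be the 12 largest changes in each direction among called genes at 8 CPM or more with at most 50% of values not whole, then, as none was called, the 8 with the smallest p, and the 2 members of each list with the highest CPM. A gene that this rule names is not reported here. Others are said to have been chosen after their values were seen, or stand in a list's description. Members and lists were chosen with earlier results of these data known.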

Additional observations from a re-analysis of the deposited data

Results flagged for a closer look

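In 190 sets of values per mouse (10 measures, the distance among oocytes and the named genes at 8 CPM or more, in groups of 5 or 8 mice), 9 held a mouse far from the rest of its group by Dixon's 95% criterion, which chance meets in about 1 in 20 sets. In hyperovulated mice these were Ust at 42.8 CPM in 2mo1 (next 25.2), Zbed3 at 7714 CPM (next 6684) and Rn7s2 at 610 CPM (next 536) in 2mo34, and Ldha at 21.1 CPM in 2mo36 (next 12.1). Among mice without hyperovulation all 5 were 2moNoH11, with a score of 8.66 on the fourth principal component (next 1.84), Ust at 25.5 CPM (next 15.6), Rnf43 at 18.8 CPM (next 14.5), Ern1 at 2200 CPM (next 2115) and Cdc25a at 150.1 CPM (next 130.0).

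The difference between groups itself differed between plates in 4 of 10 measures after adjustment, each as the difference on plate 2 minus that on plate 1. It was 99.2 CPM for the summed cumulus markers, 0.178 percentage points for the mitochondrially encoded share, 0.282 percentage points for the share outside protein-coding genes (exact permutation p = 0.019, adjusted p = 0.0476) and 25.8 for the second principal component. By an edgeR interaction term 46 genes differed in this way. Plate and the mice it held cannot be told apart, since each mouse was on 1 plate.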

How the results depend on the processing

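The counts of genes past the threshold over mice (0 higher and 0 lower) stayed at 0 without a plate term, with DESeq2, with its size factors in edgeR, with the filter of filterByExpr and with limma voom. With libraries as units they were 3 and 4, without a filter 3 and 3, on plate 1 alone 1 and 13, on plate 2 alone 6 and 1, and with the cumulus marker level as a covariate 2 and 0 (Inhba and Rhox8). With each of the 13 mice left out they were 0 to 1 higher and 0 lower, the 1 being Rhox8 without 2mo1 or 2moNoH9. Of 110 genes tabulated, 3 were called with the opposite sign on a plate alone: Ccnd2 (2.10) and Hsd17b1 (2.32) on plate 2 and Arhgap31 (-1.68) on plate 1. The causes were not tested. Among 2628 alternative values of these genes, 235 had the other sign, among them those of Zp3 (0.02) and mt-Co1 (0.16) on plate 2 alone. With hyperovulated mice at 4 months in place of 2 months, which differ in age too, 20 genes were called, Inhba (log2 fold change 1.75, adjusted p = 0.0469) and Kazald1 (-3.01, adjusted p = 0.0061) among them and not Rhox8 (1.86, adjusted p = 0.332). The share of variance between groups was 9.67% to 10.5% and the difference in distance among oocytes -0.993 to -0.132 with each mouse left out, and all 140 alternative values of the 10 measures kept their side of the threshold. No paired analysis was possible because the groups held different mice and shared no replicate numbers. Depth limits genes under about 8 CPM, where intervals are wide.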
